A study of Mus musculus with 16 samples.

Results

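The genes described are 38 that carry a cell through mitosis and police it: Cdk1 and its cyclins, the Cdc25 phosphatases, mitotic kinases, the spindle assembly checkpoint, the chromosomal passenger complex, kinetochore proteins, the anaphase machinery, spindle and cytokinesis proteins, and the transcription factors Foxm1 and Mybl2. They are a list of names with known roles in mitosis, drawn up with no threshold on a measured value but with earlier results of these data known, and were matched by symbol to the Ensembl identifiers of the count files. All 38 were found among the 38293 genes counted and all 38 had enough counts to be tested. Expression came from 6 RNA-Seq libraries of 2 untreated mouse lymphoid cell lines, 3 of P6D4 and 3 of 70Z/3. P6D4 was derived from SCID.adh, a murine thymic lymphoma, and carries the label DN3, an early thymocyte stage, and 70Z/3 is a lymphoblast line labelled Pre-B. Binding of Miz1, the zinc finger factor encoded by Zbtb17, was measured by ChIP-Seq once per line; the histone mark libraries were not used here. Each lineage is represented by a single transformed line, so line and lineage cannot be told apart.

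Entry into mitosis is driven by Cdk1 bound to cyclin B, after Cdc25 phosphatases have removed inhibitory phosphates from Cdk1. While any kinetochore lacks microtubules, the checkpoint kinases Ttk and Bub1 and the proteins Mad2l1, Bub1b and Bub3 hold Cdc20 back from the anaphase-promoting complex. Once released, that ligase has securin (Pttg1) and cyclin B destroyed, and separase (Espl1) cuts the cohesin that joins the sister chromatids. Most of these genes are read mainly in late S, G2 and M phase, from promoters that carry CCAAT boxes (bound by NF-Y) and a cell cycle homology region, TTTGAA or a variant of it, through which the MuvB core acts with the DREAM complex, B-Myb (Mybl2) and Foxm1. Pre-B cells and DN3 thymocytes are both known for bursts of division around the test of their first receptor chain.

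The P6D4 libraries held 48255176 to 54815145 counts in genes, against 45481949 to 48885150 in the 70Z/3 libraries. The members had between 1948 and 68396 counts per library in P6D4 and between 1521 and 79131 in 70Z/3, so counting error was small. The labelled lineages matched their markers. The 8 pre-B markers summed to 3.12 to 3.32 CPM in P6D4, against 1920 to 1970 CPM in 70Z/3, and the 8 thymocyte markers to 3250 to 3310 CPM in P6D4, against 130 to 133 CPM in 70Z/3. That last sum came nearly all from Lck and Tcf7. The 6 myeloid markers summed to 27.5 to 34.1 CPM in P6D4 and 21.1 to 22.9 CPM in 70Z/3, mostly Itgam and Lyz2, with Adgre1 and S100a8 at 0 in all 70Z/3 libraries. The 5 stromal, endothelial and epithelial markers gave 60.9 to 69.7 CPM in P6D4 and 81.1 to 87.4 CPM in 70Z/3, nearly all from Pecam1, with Col1a1, Col1a2 and Epcam at 0 in P6D4 and Epcam at 0 in 70Z/3. The part of these markers in the results was not tested. The Miz1 gene Zbtb17 had 45.4 ± 0.887 CPM in P6D4, against 41.1 ± 0.506 CPM in 70Z/3 (SD, n = 3).

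The sum of the 38 genes was nearly equal in the lines, but only with Top2a and Mki67 counted. Most single genes differed by modest and opposite amounts. The 38 genes summed to 8960, 9300 and 9410 CPM (counts scaled to a common library size) in the P6D4 libraries. In the 70Z/3 libraries the sums were 9440, 9250 and 9210 CPM. The 2 ranges overlap, and the ratio of the means, P6D4 over 70Z/3, was 0.992. Top2a and Mki67 weigh most in these sums, and both were lower in P6D4. Top2a had a mean of 1240 CPM in P6D4, against 1430 CPM in 70Z/3, and Mki67 1290 CPM, against 1640 CPM. By library, Top2a was at 1180, 1250 and 1280 CPM in P6D4, against 1480, 1410 and 1400 CPM in 70Z/3. Mki67 was at 1230, 1300 and 1350 CPM in P6D4, against 1680, 1640 and 1590 CPM in 70Z/3. With these values taken from the sums, every P6D4 library stood above every 70Z/3 library. The near equality therefore rests on those genes and did not hold for the other members. In bulk RNA such a level reflects both the share of cells near mitosis and the RNA per cell, which cannot be told apart. By edgeR's quasi-likelihood test (adjusted p under 0.05 over all genes), 33 members were called: 18 of them stood higher in P6D4 and 15 stood lower, which left 5 uncalled. Over all 13750 genes tested, 43.3% were called higher and 43.2% lower (86.5% in either direction), so the members were called about as often as any gene. The same shares stand beside the counts for each role below, which rest on few genes. For the 18 and 15 genes called, all 3 libraries of P6D4 lay above or below all 3 of 70Z/3. Such a separation was seen in 43.8% (above) and 43.6% (below) of the genes tested.

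The size of the differences was small beside that of the transcriptome. Past a 2-fold difference (edgeR glmTreat, adjusted p under 0.05), 2 members were higher, Bub1b and Cdk1, and 1 was lower, Mad2l1. Over all genes tested, 16.6% were past 2-fold upward and 18.6% downward. The median absolute log2 fold change was 0.35 for the members, against 0.67 for all genes tested and 0.43 for the 6016 tested genes whose mean level lay in the members' range of 37 to 1460 CPM. In that range 17.7% of genes were past 2-fold, against 7.89% of the members. The range was applied after the values were seen, and no test was made of these shares. Median signed log2 fold changes were 0.02 for the members and 0.01 for all genes tested.

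**Figure D1:**
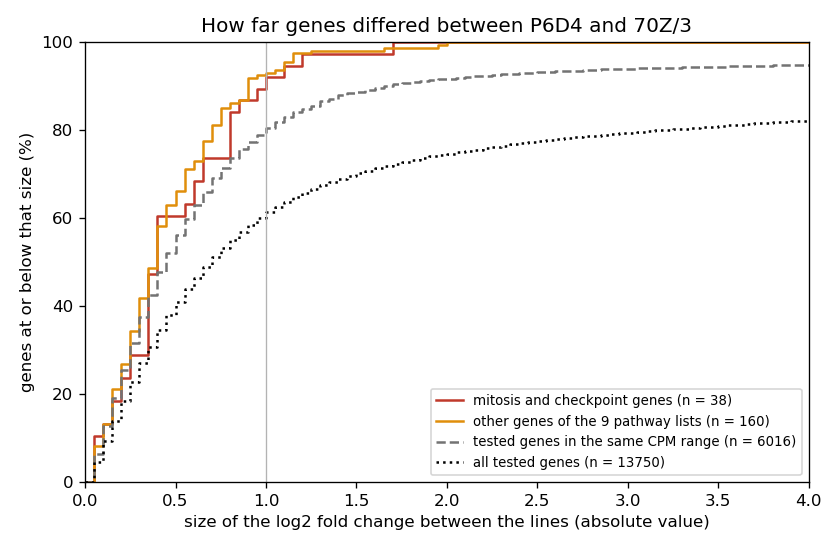
Cumulative share of genes (y axis, percent) by the absolute log2 fold change between P6D4 and 70Z/3 (x axis, drawn to 4), for the 38 mitosis and checkpoint genes, 160 other genes of 9 pathway lists, the 6016 tested genes in the same range of CPM and all 13750 tested genes. Of the members, 92.1% lie below 1 (a 2-fold difference, vertical line), against 80.5% of genes of like level and 61.4% of all tested genes.

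**Figure D2:**
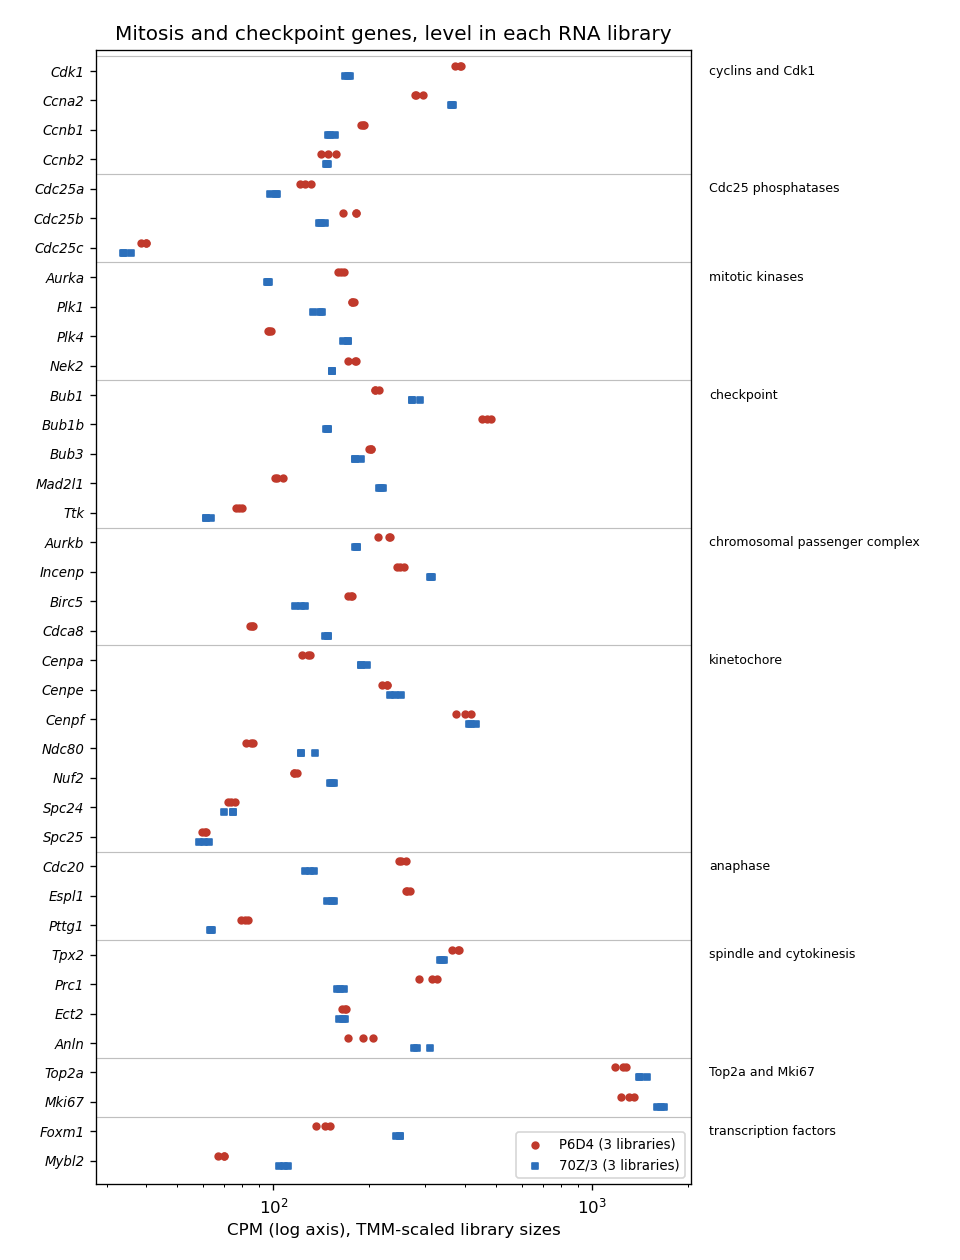
Level of each member in each RNA library (x axis, CPM on a log axis), grouped by role, with P6D4 as circles above and 70Z/3 as squares below in each row. The lines are clearly apart for Bub1b, Cdk1 and Mad2l1 and overlap for Ccnb2, Cenpf, Spc24, Spc25 and Ect2.

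Promoter sequences (RefSeq, GRCm38.p6, from 250 bases before the annotated start to 50 after) were at hand for 31 of the 38 members. Both strands were searched for CCAAT and for the cell cycle homology letters TTTGAA and its variants TTTAAA and also TTCGAA. The CCAAT letters were present in 23 of the 31 (74.2%), against 42.3% of 17492 protein-coding genes searched alike, and TTTGAA in 19 (61.3%), against 18.5%. Both were in 17 (54.8%), against 7.40%. TTTAAA, which is its own reverse complement, was in 29.0% of the members and 13.8% of genes, and TTCGAA, likewise, in 12.9% and 2.13%. The E2F-type letters TTCCCGC or TTGGCGC were in 19.4%, against 9.94%. The E-box letters CACGTG, a search added after the others, were in 9.68%, against 8.91%. These are matches of letters and not shown to be sites.

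The promoters of the 3 members past 2-fold (Bub1b, Cdk1 and Mad2l1) and of the other members with a Miz1 peak (Aurka and Ndc80) are shown 5′ to 3′, with matches to CCAAT or to the cell cycle homology letters, on either strand, in capitals. They lie at chr2:118597961-118598260 (Bub1b, plus strand), chr10:69352863-69353162 (Cdk1, minus), chr6:66534971-66535270 (Mad2l1, plus), chr2:172370521-172370820 (Aurka, minus) and chr17:71526808-71527107 (Ndc80, minus). Cdk1 and Aurka have the closely spaced CCAAT and TTTGAA letters near the start, Ndc80 has TTTAAA and the reverse complement of TTTGAA after the start and no CCAAT, and the Mad2l1 window holds none of the letters put in capitals.
Bub1b: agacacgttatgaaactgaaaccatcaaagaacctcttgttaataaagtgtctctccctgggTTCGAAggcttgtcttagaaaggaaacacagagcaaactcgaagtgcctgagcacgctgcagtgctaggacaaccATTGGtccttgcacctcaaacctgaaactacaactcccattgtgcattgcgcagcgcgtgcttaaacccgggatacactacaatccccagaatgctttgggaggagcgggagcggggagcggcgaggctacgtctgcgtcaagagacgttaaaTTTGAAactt
Cdk1: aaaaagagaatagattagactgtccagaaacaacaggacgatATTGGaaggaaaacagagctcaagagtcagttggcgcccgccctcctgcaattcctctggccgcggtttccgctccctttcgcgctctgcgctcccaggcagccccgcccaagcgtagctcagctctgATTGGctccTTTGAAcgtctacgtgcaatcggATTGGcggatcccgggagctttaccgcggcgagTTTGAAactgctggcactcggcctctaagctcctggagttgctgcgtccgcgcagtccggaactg
Mad2l1: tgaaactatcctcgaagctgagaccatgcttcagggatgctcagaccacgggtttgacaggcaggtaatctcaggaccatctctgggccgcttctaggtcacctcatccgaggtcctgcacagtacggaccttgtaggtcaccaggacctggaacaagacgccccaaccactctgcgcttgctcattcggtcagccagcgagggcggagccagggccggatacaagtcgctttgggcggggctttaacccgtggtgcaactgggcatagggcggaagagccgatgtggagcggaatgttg
Aurka: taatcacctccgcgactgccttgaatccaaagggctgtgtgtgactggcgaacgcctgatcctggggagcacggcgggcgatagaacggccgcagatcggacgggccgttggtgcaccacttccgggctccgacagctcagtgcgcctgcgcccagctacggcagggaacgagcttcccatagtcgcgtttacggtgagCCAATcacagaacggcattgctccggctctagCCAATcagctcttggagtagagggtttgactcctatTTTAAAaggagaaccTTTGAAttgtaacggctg
Ndc80: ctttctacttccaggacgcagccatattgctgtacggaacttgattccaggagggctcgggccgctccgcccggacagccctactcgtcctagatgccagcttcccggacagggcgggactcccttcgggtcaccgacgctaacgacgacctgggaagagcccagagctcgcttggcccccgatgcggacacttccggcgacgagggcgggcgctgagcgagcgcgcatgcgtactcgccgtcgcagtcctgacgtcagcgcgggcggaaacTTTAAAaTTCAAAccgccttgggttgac

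Among Cdk1 and its cyclins, the kinase itself showed the main difference. Cdk1 (ENSMUSG00000019942, chr10:69335146-69352912, RefSeq bounds on GRCm38.p6) was at 372, 385 and 387 CPM in P6D4, against 168, 174 and 172 CPM in 70Z/3. Every P6D4 library was above every 70Z/3 library, and the level was 2.23-fold higher in P6D4 (log2 fold change 1.16 ± 0.03, SE; edgeR adjusted p = 5e-13). Ccna2, cyclin A of S and G2 phase, went the other way, with 279, 281 and 294 CPM in P6D4, against 363, 367 and 361 CPM in 70Z/3 (log2 fold change -0.35 ± 0.03). Ccnb1, the main mitotic cyclin, was at 188, 193 and 191 CPM in P6D4, against 148, 151 and 156 CPM in 70Z/3 (0.33 ± 0.03). Ccnb2, a cyclin B partner of Cdk1 found at the Golgi, was at 141, 157 and 148 CPM in P6D4, against 147, 146 and 148 CPM in 70Z/3, and was not called (edgeR adjusted p = 0.678). Annotated pseudogene copies of Ccnb1 and Ccnb2 exist, with which reads can be shared, so these counts are less certain. All 3 Cdc25 phosphatases were higher in P6D4 by similar small amounts, with log2 fold changes of 0.33 for Cdc25a, 0.32 for Cdc25b and 0.19 for Cdc25c.

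Counts of a pair of genes in the same library give a ratio from which library scaling cancels, although gene length does not. Expressed as log2, Cdk1 over Ccna2 was 0.41, 0.45 and 0.40 in P6D4, against -1.12, -1.08 and -1.07 in 70Z/3. The balance of kinase to cyclin A thus shifted by 1.51 ± 0.02 (SE), or 2.85-fold, toward the kinase in P6D4. Cdk1 over Ccnb1 shifted by 0.83 ± 0.02. In all, 20 such pairs were formed, chosen by known complexes or pathways after member values had been seen, and 19 showed no overlap between the lines. Single genes did so in 87.4% of all those tested, and the share over pairs of other genes was not computed, so the count of 19 says little beyond that background. The two-sided exact permutation test over 6 libraries gave p = 0.1 for each of those 19 (0.105 after Benjamini-Hochberg adjustment over the 20), which is the smallest p that 3 libraries against 3 allow.

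By log2 fold change, without regard to chromosome, the checkpoint genes held the largest difference in each direction among the members. Bub1b (ENSMUSG00000040084, chr2:118598202-118641592), which encodes BubR1, a subunit of the inhibitor that binds Cdc20, was at 482, 468 and 450 CPM in P6D4, against 148, 148 and 146 CPM in 70Z/3. It was 3.17-fold higher in P6D4 (1.66 ± 0.03 on the log2 scale, edgeR adjusted p = 1.76e-14), larger in size than 72% of all tested genes. Mad2l1 (ENSMUSG00000029910, chr6:66535221-66541107), which encodes the Mad2 protein of the same inhibitor, was at 107, 103 and 101 CPM in P6D4, against 220, 218 and 215 CPM in 70Z/3. The groups did not overlap, and Mad2l1 was 2.10-fold lower in P6D4 (-1.07 ± 0.03, edgeR adjusted p = 1.7e-12). Its call past 2-fold (edgeR glmTreat adjusted p = 0.0186) was lost without P6D4 replicate 2 (0.0648), without P6D4 replicate 3 (0.0923) and with upper-quartile scaling (0.359), over a range of 0.00429 to 0.359 for the alternatives run.

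Bub1, the kinase that marks centromeric histone H2A, had 208, 209 and 215 CPM in P6D4, against 289, 272 and 273 CPM in 70Z/3 (-0.40 ± 0.03, edgeR adjusted p = 1.12e-07). Bub3, the adaptor that brings Bub1 and BubR1 to kinetochores, was slightly higher in P6D4, at 200, 203 and 202 CPM, against 180, 189 and 180 CPM in 70Z/3 (0.14 ± 0.03). Ttk, the kinase Mps1 that starts the checkpoint signal, was also higher, at 76.5, 79.8 and 77.9 CPM in P6D4, against 63.7, 61.4 and 61.6 CPM in 70Z/3 (0.33 ± 0.04). Of the 5 checkpoint members, 3 were thus higher and 2 lower. Within libraries, Bub1b over Mad2l1 was 2.17, 2.19 and 2.16 on the log2 scale in P6D4, against -0.58, -0.56 and -0.55 in 70Z/3. That ratio was 6.66-fold larger in P6D4, the largest shift among the 20 pairs. This rank follows from pairing the member of largest rise with that of largest fall, and adds nothing to the single genes. Bub1b over its paralog Bub1 was 4.17-fold larger and Bub1b over Bub3 2.87-fold larger in P6D4.

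The 3 members of the anaphase switch were all higher in P6D4. Cdc20, the activator of the anaphase-promoting complex and the target of the checkpoint, was at 248, 261 and 251 CPM in P6D4, against 126, 130 and 134 CPM in 70Z/3 (0.96 ± 0.04, edgeR adjusted p = 9.31e-12). It lay close to 2-fold and was not called past it under any of the settings in the closing section. Espl1, separase, was higher by 0.80 ± 0.03 and Pttg1, securin, by 0.35 ± 0.04. Cdc20 over Mad2l1, its checkpoint inhibitor, was 4.09-fold larger in P6D4, whereas Cdc20 over Bub1b was 1.63-fold smaller.

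**Figure D3:**
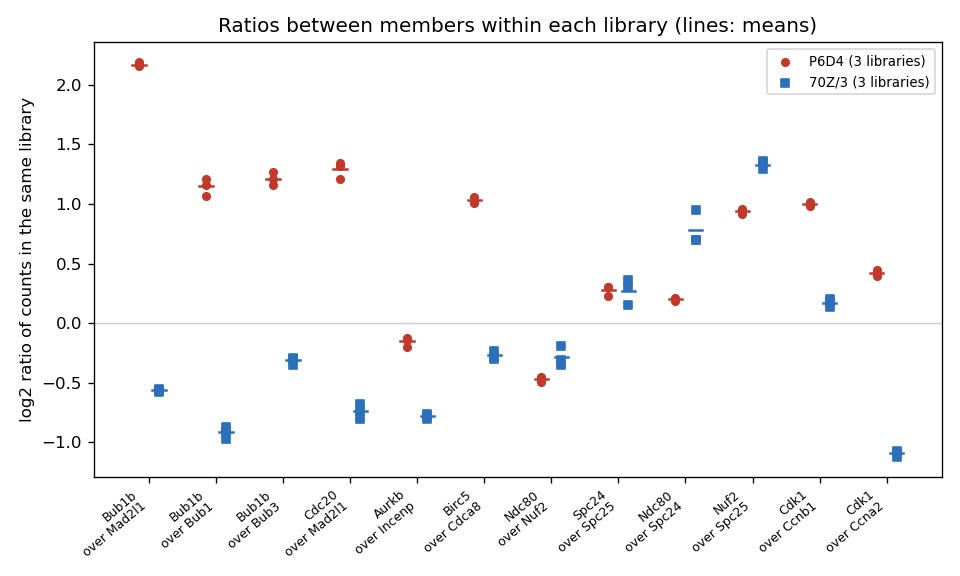
Log2 ratio of the counts of 2 members within each library (y axis) for 12 of the 20 pairs (x axis), P6D4 as circles on the left and 70Z/3 as squares on the right of each pair, with short lines at the means. Bub1b over Mad2l1 is near 2.17 in P6D4 and -0.56 in 70Z/3, while Spc24 over Spc25 overlaps.

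Of the other mitotic kinases, 3 were higher in P6D4 and 1 lower. Aurka, the kinase of centrosomes and spindle poles, was at 159, 163 and 167 CPM in P6D4, against 97.1, 95.6 and 96.2 CPM in 70Z/3. It was 1.69-fold higher in P6D4 (0.76 ± 0.03, edgeR adjusted p = 5.51e-11), while Tpx2, the spindle protein that activates it, was higher by only 0.15 ± 0.03. Plk1, which acts at centrosomes, kinetochores and the midzone, had 176, 179 and 177 CPM in P6D4, against 133, 140 and 142 CPM in 70Z/3 (0.36 ± 0.03). Nek2, a kinase of centrosome separation, was higher by 0.21 ± 0.03. Plk4, the kinase that starts centriole duplication, was lower in P6D4, at 97.3 ± 0.987 CPM, against 169 ± 3.74 CPM in 70Z/3 (-0.80 ± 0.03; SD of levels, n = 3). Apart from Plk4, each of these kinases was higher in all 3 P6D4 libraries.

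The chromosomal passenger complex, which corrects faulty kinetochore attachments, was divided. Its kinase Aurkb was at 213, 230 and 233 CPM in P6D4, against 183, 180 and 183 CPM in 70Z/3 (0.31 ± 0.04, edgeR adjusted p = 4.06e-06). Birc5, survivin, was also higher, by 0.52 ± 0.04. The scaffold Incenp and the borealin gene Cdca8 were lower in P6D4, by -0.32 ± 0.03 and -0.78 ± 0.03. Birc5 over Cdca8, whose products bind each other directly, was 2.46-fold larger in P6D4 (1.30 ± 0.03), with 1.06, 1.02 and 1.01 in P6D4, against -0.30, -0.28 and -0.23 in 70Z/3. Aurkb over Incenp was 1.54-fold larger.

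No kinetochore member was called higher in P6D4, 4 of 7 were called lower and 3 were not called. Over all tested genes, 43.3% were called higher and 43.2% lower, and 7 genes are few to set beside those shares. Cenpa, the histone variant that marks centromeres, was lower by -0.59 ± 0.04 and the motor Cenpe by -0.11 ± 0.04, a call that was lost without P6D4 replicate 3 (edgeR adjusted p = 0.0739) and with upper-quartile scaling (0.225), over a range of 0.00287 to 0.225. Cenpf, a large protein of the outer kinetochore, was at 373, 399 and 417 CPM in P6D4, against 431, 417 and 412 CPM in 70Z/3. Its groups overlapped and it was not called (edgeR adjusted p = 0.0742), though it passed in 4 alternative settings, with P6D4 replicate 3 left out in one of them (0.0154).

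The 4 subunits of the Ndc80 complex, which holds the microtubule end, differed between its 2 dimers. Ndc80 was at 85.4, 86.1 and 82.3 CPM in P6D4, against 135, 122 and 122 CPM in 70Z/3 (-0.57 ± 0.04, edgeR adjusted p = 2.63e-08), and its dimer partner Nuf2 was lower by -0.39 ± 0.03. Spc24 was at 73.7, 75.7 and 71.9 CPM in P6D4, against 69.8, 75.0 and 74.9 CPM in 70Z/3 (edgeR adjusted p = 0.814). Spc25, its dimer partner, was at 59.7, 61.5 and 61.2 CPM in P6D4, against 62.9, 58.5 and 60.7 CPM in 70Z/3 (edgeR adjusted p = 0.957). Both of these overlapped between the lines. Ndc80 over Spc24 shifted by -0.58 ± 0.08 and Nuf2 over Spc25 by -0.39 ± 0.03, against 0.01 ± 0.07 for Spc24 over Spc25, whose exact permutation p was 1. Ndc80 over Nuf2 shifted by -0.19 ± 0.05. Nuf2 lies on chromosome 1, where the median log2 fold change of tested genes was -0.48, and stood 0.09 above that median. Relative to the medians of their own chromosomes, Ndc80 was at -0.71, Spc24 at 0.11 and Spc25 at -0.02. The part of the chromosome in the split between dimers was not tested.

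Among spindle and cytokinesis genes, Prc1, which bundles midzone microtubules, was at 286, 315 and 325 CPM in P6D4, against 167, 158 and 162 CPM in 70Z/3 (0.93 ± 0.05, edgeR adjusted p = 2.06e-10). Anln, the anillin of the contractile ring, was at 172, 191 and 205 CPM in P6D4, against 311, 276 and 282 CPM in 70Z/3 (-0.61 ± 0.06). Neither pair of groups overlapped. The bounds of Anln, Prc1, Ccna2, Cdc20 and Foxm1 each overlap another protein-coding gene, so reads there can be lost or shared. Ect2, which activates RhoA at the cell equator, was at 164, 168 and 169 CPM in P6D4, against 168, 165 and 161 CPM in 70Z/3 and was not called (edgeR adjusted p = 0.609). Anln varied most between replicates of a line, with a coefficient of variation of 8.85% in P6D4 and 6.52% in 70Z/3; the members' median was 2.60% in P6D4 and 2.38% in 70Z/3. Top2a, the topoisomerase that untangles sister chromatids, and Mki67, the Ki-67 protein on the surface of mitotic chromosomes, were both lower in P6D4. Mki67 was at 1290 ± 62.0 CPM in P6D4, against 1640 ± 45.4 CPM in 70Z/3 (-0.34 ± 0.04, edgeR adjusted p = 1.96e-06), and Top2a differed by -0.21 ± 0.04.

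The transcription factors that activate this group of genes were both lower in P6D4. Foxm1 was at 136, 145 and 151 CPM in P6D4, against 249, 242 and 250 CPM in 70Z/3 (-0.78 ± 0.04, edgeR adjusted p = 3.87e-10). Mybl2, B-Myb, was at 70.1, 67.0 and 70.3 CPM in P6D4, against 104, 108 and 111 CPM in 70Z/3 (-0.64 ± 0.04). Plk1, a known target of Foxm1, was higher in P6D4, so that Foxm1 over Plk1 was 2.20-fold smaller there (-1.14 ± 0.06). That pair was chosen after member values had been seen, and the members went both ways, with 18 called higher and 15 lower. Foxm1 also lies on chromosome 6, where the median was -0.55, and the part of the chromosome was not tested.

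Within P6D4, replicate 1 had the lowest value of the 3 for 28 of the 38 members (73.7%), against 42% of all tested genes. In 70Z/3 no library stood out in this way, with 10 to 15 members lowest in each. Without P6D4 replicate 1, the test again called 18 members higher and 15 lower.

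Some members lie on chromosomes whose genes as a whole differed between the lines. The median log2 fold change over tested protein-coding genes was 0.94 on chromosome 15 (445 genes), 0.47 on chromosome 10, -0.55 on chromosome 6, -0.48 on chromosome 1 and -0.37 on chromosome 5; on the other chromosomes it was between -0.10 and 0.16. Espl1, the member on chromosome 15, was at 0.80, which is -0.14 relative to that median. Cdk1 stood 0.69 above the median of chromosome 10, and Mad2l1 and Foxm1 lay 0.52 and 0.23 below that of chromosome 6 (differences of -0.52 and -0.23). Nuf2, on chromosome 1, was 0.09 above its median, and Cenpf and Nek2, on the same chromosome, were 0.40 and 0.69 above. Cenpa, on chromosome 5, was at -0.22 relative to its median, and Cenpe, on chromosome 3, at -0.05. Bub1b lies on chromosome 2, where the median was 0.02, and at 1.64 above it was still the largest rise. Relative to their chromosome medians, Cdc20 (0.90), Prc1 (0.78) and Aurka (0.74) stood further above than Cdk1. Cdca8 (-0.84), Plk4 (-0.74), Ndc80 (-0.71) and Mybl2 (-0.66) lay further below than Mad2l1. The part of the chromosome in these differences was not tested.

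**Figure D4:**
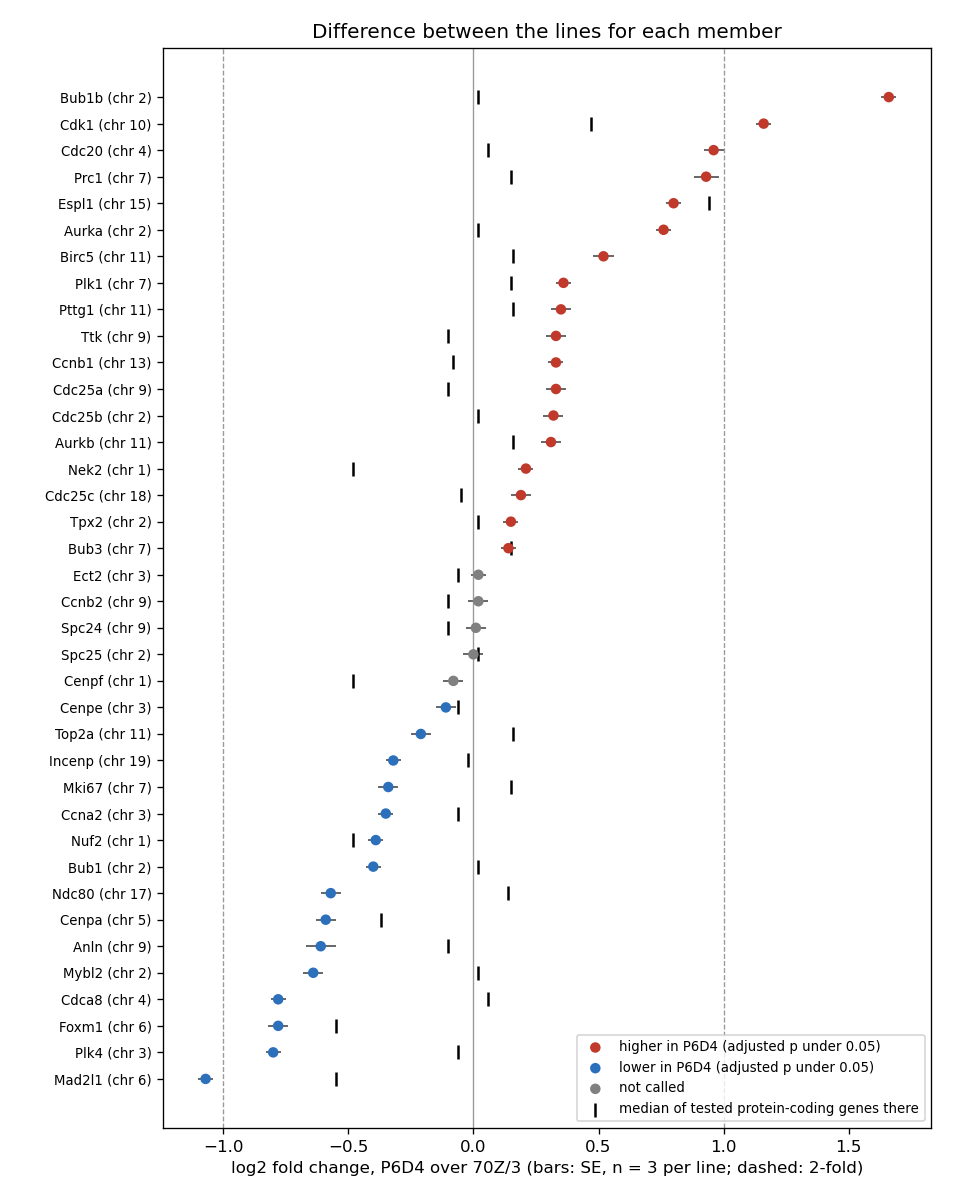
Log2 fold change of each member, P6D4 over 70Z/3 (x axis; points with SE, n = 3 libraries per line; dashed lines mark 2-fold), in order of size, with a tick at the median of tested protein-coding genes on the same chromosome. Bub1b at 1.66 and Cdk1 at 1.16 lie past 2-fold on the right, Mad2l1 at -1.07 on the left, and Espl1 at 0.80 lies close to its chromosome's tick at 0.94.

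Other genes of mitosis and of DNA replication were taken from 9 lists of named complexes and pathways, which were split by direction to unequal degrees. Of 160 genes, all tested, 70 were higher and 70 lower, and 20 missed the threshold. That is 87.5% called, against 86.5% of all tested genes, so these lists were called about as often as any gene. The counts per list stand beside 43.3% called higher and 43.2% lower over all tested genes. Their median absolute log2 fold change was 0.36. Past 2-fold there were 6 higher and 3 lower, or 5.62% against 35.2% of all tested genes. In the members' CPM range, below which some genes of these lists fall, the share was 17.7%. Replication genes had 14 higher, 14 lower and 7 not called of 35, with none past 2-fold. They ranged from Mcm3, a replicative helicase subunit on chromosome 1, at -0.87 ± 0.03 to the loading factor Cdt1 at 0.96 ± 0.03 (edgeR adjusted p = 7.09e-12). Beyond the checkpoint members above, 7 of 10 further checkpoint genes were lower, 1 was higher and 2 were not called; with upper-quartile scaling 4 were lower and 2 higher. Zw10, which brings dynein and the Mad1-Mad2 complex to kinetochores, was 2.31-fold lower in P6D4, at 49.4 ± 2.51 CPM, against 114 ± 1.67 CPM in 70Z/3 (SD, n = 3). The higher gene was its partner Zwilch, at 0.33 ± 0.04.

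Kinetochore genes outside the members split into 11 higher, 11 lower and 4 not called of 26. Zwint, which joins the outer kinetochore and the Zw10 complex, was 3.90-fold higher in P6D4, at 235, 232 and 242 CPM, against 57.4, 63.6 and 61.1 CPM in 70Z/3 (1.96 ± 0.04, edgeR adjusted p = 1.8e-14). It lies on chromosome 10, whose median was 0.47. Cenpk, of the inner kinetochore, was lower by -1.10 ± 0.05. Spindle motors and microtubule proteins had 14 higher and 7 lower of 23, from Kif20b, a kinesin of cytokinesis, at -0.88 ± 0.03 to Nusap1, a microtubule bundling protein, at 1.91 ± 0.06. For subunits and partners of the anaphase-promoting complex the split was 11 higher and 7 lower of 18. They ranged from Anapc5, on chromosome 5, at -0.77 ± 0.03 to Anapc16, on chromosome 10, at 1.13 ± 0.04.

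Cohesin and condensin genes were lower in 12 cases and higher in 5 of 19. Of those higher, Rad21, Nipbl and Ncaph2 lie on chromosome 15, whose median was 0.94. Of those lower, Ncapd2 lies on chromosome 6 (median -0.55), and Pds5a, Pds5b and Ncapg on chromosome 5 (-0.37). The part of the chromosome was not tested. The condensin II subunit Ncapd3 was lower by -1.13 ± 0.04, and the condensin II subunit Ncaph2, on chromosome 15, was higher by 0.63 ± 0.04. Of 10 regulators of Cdk1, 7 were higher and 2 lower, from Ensa, a phosphatase inhibitor, at -0.39 ± 0.04 to Cks1b, a Cdk-binding subunit, at 0.76 ± 0.03. DREAM and MuvB genes had 3 higher and 6 lower of 11. There the pocket protein gene Rbl2 was lower by -0.69 ± 0.06 and its partner E2f4 higher by 0.95 ± 0.04. Centriole duplication genes had 4 higher and 4 lower of 8, from Cep135, on chromosome 5, at -0.89 ± 0.04 to Nedd1, on chromosome 10, at 0.40 ± 0.04.

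Miz1 peaks were rare at these genes, as at genes in general, and a single strong peak was common to both lines. The authors called 21629 Miz1 peaks (mm10) in P6D4 from 2067731 tags kept after removal of duplicates, and 10462 in 70Z/3 from 4484034 tags. The headers give a redundant share of 0.97 for the P6D4 ChIP library and 0.85 for that of 70Z/3, so depth differed and a peak missing from either list is not evidence of absence. Summits up to 1 kb from a gene's start or end were counted. In P6D4, 1 of 38 members had a peak (Aurka), or 2.63%, against 1.08% of 21887 protein-coding genes. In 70Z/3, 3 of 38 had one (Aurka, Cdk1 and Ndc80), or 7.89%, against 2.98%. Both shares lie above those of all genes but rest on few members, and no test was made of them. The 21887 genes were not limited to expressed ones, as all members were, and the share over expressed genes was not computed. The same members were found within 500 bp and within 2 kb, from the annotated start alone, and among peaks with an authors' fold of at least 5. With 1 ChIP library per line there is no replicate check.

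The Aurka peak (chr2:172370663-172371215 in P6D4 and chr2:172370604-172371325 in 70Z/3) was strong in each list by the authors' own scores. Its fold over background was 45.4 in P6D4, rank 18 of 21629, and 101 in 70Z/3, rank 49 of 10462. Relative to the start of Aurka used for the promoter window, the summits lay at -359 bp (P6D4) and -344 bp (70Z/3). Of the starts used for promoter windows, the nearer was that of Cstf1, a cleavage stimulation factor gene on the other strand. The summits lay 74 bp (P6D4) and 89 bp (70Z/3) upstream of that start, and the bounds of Cstf1 overlap those of Aurka. Cstf1, named for this position, was at 81.8, 82.3 and 83.4 CPM in P6D4, against 73.1, 75.0 and 75.0 CPM in 70Z/3 (0.15 ± 0.03, edgeR adjusted p = 0.00103), a smaller difference than that of Aurka. The annotated bounds of Aurka, which include an upstream start, reach to 43 bp (P6D4) and 28 bp (70Z/3) from the summits, nearer than the Cstf1 start used here. Those of Cstf1 begin at -75 bp from the Aurka start, ahead of the Cstf1 start used here, so both summits lie inside them. Which gene the peak belongs to was not tested, and because the genes overlap at their ends, reads from there can be lost or shared.

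The Cstf1 promoter window (chr2:172370753-172371052, plus strand) holds both summits and is shown with the letters ATCGAT, searched for as part of a reported Miz1 motif, in capitals.
Cstf1: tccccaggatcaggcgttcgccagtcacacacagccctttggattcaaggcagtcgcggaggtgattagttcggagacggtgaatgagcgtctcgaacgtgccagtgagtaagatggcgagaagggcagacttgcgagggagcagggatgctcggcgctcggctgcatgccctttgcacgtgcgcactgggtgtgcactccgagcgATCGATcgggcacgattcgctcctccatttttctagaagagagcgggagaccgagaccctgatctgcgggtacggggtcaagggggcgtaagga

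The match begins 44 bases before the Cstf1 start, 30 bp from the P6D4 summit and 45 bp from the 70Z/3 summit. ATCGAT, which reads the same on both strands, was in 1.00% of the 17492 promoters and in 3.23% of the members' (Bub3 alone, which had no peak). Among promoter windows that held a summit, it was in 15 of 82 (18.3%) in the P6D4 list and 13 of 183 (7.10%) in the 70Z/3 list. The Cdk1 peak was found in 70Z/3 alone, with a fold of 6.67 and a pileup of 10 tags, below the median fold of that list (7.28), and its summit lay 237 bp inside the gene. The Ndc80 peak, also in 70Z/3 alone, had a fold of 10.9 (rank 1248 of 10462), with its summit 115 bp upstream of the start and within the promoter window printed for it. Spdya, a cell cycle regulator gene, also has a bound within 1 kb of that peak, and at 0.0829 to 0.192 CPM over the 6 libraries it was too low to be tested. Which of the genes the peak belongs to was not tested. Of the genes with a peak in 70Z/3, Ndc80 was higher in that line, while Cdk1 and Aurka were lower there.

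**Figure D5:**
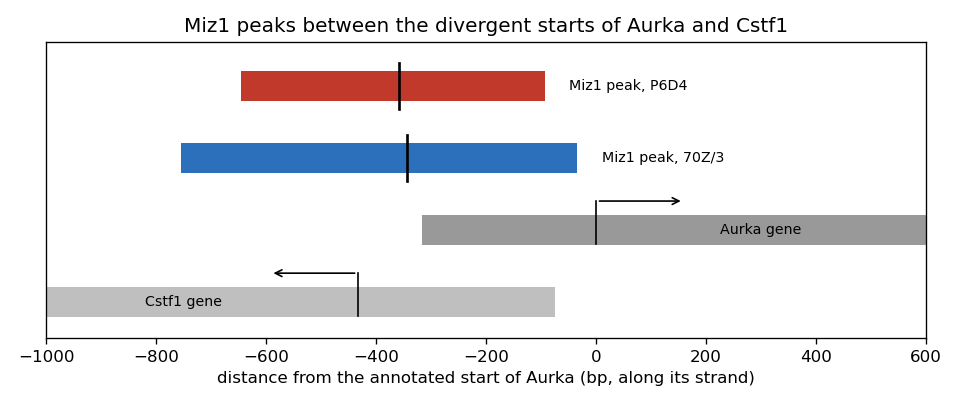
Miz1 peaks of both lines (bars, with a black line at each summit) and the bounds of Aurka and Cstf1 (grey bars, with arrows at the annotated starts) by distance from the Aurka start in bp along its strand (x axis), cut at the edges of the plot. The summits at -359 (P6D4) and -344 (70Z/3) lie between the starts of Aurka at 0 and Cstf1 at -433, and inside the bounds of Cstf1.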

How the data were processed

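Whole-number counts per Ensembl gene were deposited by the authors, 1 file for each library, as raw values. The submitters' processing notes name TopHat2 2.0.10, Bowtie2 2.10, SAMtools, bedtools and HTSeq, and the builds mm10 and GRCm38. How strand was treated in counting was not found in these sources. The 5 HTSeq summary lines were left out; they hold 56.4 to 61.8% of the lines' total, mostly non-unique alignments. The Miz1 peak lists were made with MACS2 per the file headers (q-value threshold 0.01, 1 tag kept per position). The deposited pileup is a signal, the fold is a ratio to local background, and -log10 p values stand in place of the -log10 q planned, whose column has decimal commas.

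TMM scaling preceded the quasi-likelihood test of edgeR 4.0.16 (filterByExpr, Benjamini-Hochberg over 13750 genes, threshold 0.05; glmTreat at a log2 fold change of 1), with cell line as the only term, in R 4.3.3. DESeq2 1.42.0, other scalings, no filter, a replicate block and leaving out each library were alternatives. SE is the log2 fold change over the square root of F. The test was tested on simulated data. The labels do not say that replicates were separate cultures, so p-values measure only how these libraries vary, possibly for technical reasons. No 2 libraries looked like 1 deposited in duplicate: chi-square per degree of freedom was 2.46 to 13.8 within lines.

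Full values are given for members past 2-fold, not called, with a Miz1 peak, or among the checkpoint kinases, Cdk1 and cyclins. Each list is shown by its genes of largest rise and fall. Members and lists were chosen with earlier results of these data known. Members given in full outside this rule, and Cstf1, were chosen after their values were seen, as was the CPM range. One of the marker lists is not reported here.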

Additional observations from a re-analysis of the deposited data

How the results depend on the processing

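Over the alternatives, 18 or 19 members were called higher and 14 to 16 lower, and 2 were past 2-fold upward. The replicate numbers did not pair the libraries (correlations of same-numbered deviations -0.130, -0.108 and 0.032), and with the replicate block 18 members were higher and 15 lower. The count past 2-fold downward, 1, fell to 0 with upper-quartile scaling and ranged from 0 to 1 when each library was left out. For further checkpoint genes, the higher count was 2 with upper-quartile scaling and with no filter and 1 to 2 with a library left out; the lower count was 4 with upper-quartile scaling and 5 to 6 with a library left out. Signs changed for uncalled members only. With RLE size factors and with DESeq2, Ccnb2 was at 0.00 and -0.01, Ect2 at 0.00 and -0.01, Spc24 at -0.01 in both and Spc25 at -0.02 in both. Without the filter Spc25 was at 0.00. With a library left out, Ccnb2 was between -0.02 and 0.06, Spc24 between -0.03 and 0.03, Spc25 between -0.03 and 0.03 and Ect2 between 0.00 and 0.03. The cause was not tested. At the members' depth the standard error of a log2 fold change was 0.03 to 0.06. Differences of that size, or somewhat larger, could not be resolved, as for Cenpf, which at -0.08 ± 0.04 was not called. Ect2 passed the test with upper-quartile scaling (0.08, adjusted p = 0.0469).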
